A study of Mus musculus with 35 samples.

Results

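Integrins and collagens are described here in mouse pluripotent cells grown in 3D or 2D and in the early mouse embryo. Genes were taken by symbol: every numbered integrin alpha or beta subunit, Itgav, Itgae, and every numbered collagen chain except Col4a1 and Col4a2, the main collagen chains of the early basement membrane. Of the 54446 genes in the expression table, 63 met this rule (21 integrins and 42 collagens), and the 43 with more than 1 TPM (the deposited transcript level, corrected for transcript length and scaled to the same total in every library) in at least 3 of 27 libraries are described (15 integrins and 28 collagens). The other 20 (6 integrins and 14 collagens) reached at most between 0.0171 and 1.73 TPM in their highest library. The closest below the threshold were Itgb2, Col20a1 and Col6a4, each above 1 TPM in 2 libraries, and the closest above it were Itga4, Col3a1, Col6a1, Col9a1, Col10a1 and Col24a1, each in 3. The rule did not remove every chain tied to basement membranes: Col4a5, Col4a6, Col18a1 and Col7a1, the collagen of the fibrils that anchor basement membranes, are among the 43.

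The study asked how cell division, cell ingression and priming for primitive streak fates fit together in the epiblast. Its 12 in vitro libraries, 3 per group, came from epiblast stem cells (EpiSCs) kept in 3D Matrigel and made either from embryonic stem cells (ESCs) or from E5.5 epiblasts, from EpiSCs converted from ESCs in 2D with FGF2 and Activin-A, and from epiblast-like cells (EpiLCs), ESCs held for 48 h in the same 2 factors. The 15 in vivo libraries, 3 per stage, came from the inner cell mass (ICM) at E3.5 and from the epiblast on each of the 4 following days, E4.5 to E7.5. The paper took embryos from matings of wild-type CD-1 or Pdgfra:H2B-GFP reporter mice. It used the reporter line at E4.5, so a difference of line cannot be told apart from that stage. All 27 libraries were untreated bulk samples, and the 35 samples of the series also include single-cell RNA and bisulfite libraries that are not analysed here. Both 3D cultures were grown in FAXN, a medium of bFgf2, Activin-A, the tankyrase inhibitor XAV939 and the BMP antagonist Noggin, inside Matrigel, itself a gel of laminin and type IV collagen. The 2D EpiSCs grew in bFgf2 and Activin-A on fibronectin-coated plates. Medium, matrix and dimension therefore changed together and cannot be told apart, and the 2 kinds of 3D culture differ in origin as well as in genetic background. The 2D EpiSCs and EpiLCs came from ESCs, so embryo-derived 3D EpiSCs differ from both in origin too, and possibly in genetic background. In those comparisons origin cannot be told apart from culture. Embryo samples were pools of several embryos, labelled CD-1, dissected by laser at E3.5, hand-picked as cells without GFP from a Pdgfra:H2B-GFP line at E4.5, and freed by hand of visceral endoderm and extraembryonic ectoderm from E5.5. In vitro libraries used poly-A capture and in vivo libraries ribosome-depleted total RNA, so the 2 settings are set side by side but were not compared by a test.

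Integrins are cell surface receptors made of an alpha and a beta subunit, which link the extracellular matrix to the actin cytoskeleton, and the alpha subunit largely decides the ligand. Collagens are trimers of chains built from glycine-rich repeats: fibrillar collagens form the fibres of connective tissue, fibril-associated collagens coat them, network collagens build sheets, and a few span the membrane. The epiblast is an epithelium that sits on a laminin-rich basement membrane bound through integrins containing the beta subunit Itgb1, and fibrillar collagens are best known from the mesenchyme that appears once gastrulation starts.

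The TPM of each library sum to 1000000 and keep no record of sequencing depth, so depth is unknown and no counting interval can be given. A listed 0 can be a failed estimate and is reported as a listed 0. The labels do not tie a library to a separate culture or pool, so p-values measure the spread between the libraries as deposited. In the 2D EpiSCs and in each 3D culture, 1 pair of libraries was nearly identical (median absolute log2 difference of 0.0569 to 0.0649 across genes), and ESC-derived 3D EpiSC replicate 3 stood apart from the other 2. The 5 epiblast markers, Pou5f1, Nanog, Sox2, Otx2 and Fgf5, summed to 1754 to 2739 TPM in vitro and 349 to 1026 TPM in vivo. Endoderm markers summed to 862 to 1368 TPM from E5.5 to E7.5, to 616 to 641 TPM at E3.5 and 305 to 346 TPM at E4.5, and to at most 68.5 TPM in vitro. Trophoblast markers summed to 454 to 481 TPM at E3.5 and 410.2 to 419.9 TPM at E4.5, but to at most 82.9 TPM at later stages and 17.5 TPM in vitro. In these bulk pools a change in the number of cells of a type and a change in RNA per cell cannot be told apart.

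The described genes covered a wide range of levels. Itgb1, Itga6 and Col18a1 were the 3 that exceeded 100 TPM in a library, 12 more peaked between 10 and 100 TPM, and 28 stayed under 10 TPM everywhere, of which 11 (10 collagens and Itga4) stayed under 3 TPM. The 15 integrins summed to 508 ± 26.0 TPM (mean ± SD, n = 3, as throughout) in 2D EpiSCs, 399 ± 62.7 TPM in EpiLCs, 356 ± 19.2 TPM in embryo-derived and 347 ± 35.7 TPM in ESC-derived 3D EpiSCs. In the embryo the mean integrin sum was lowest at E6.5, at 206 ± 7.14 TPM, and highest at E4.5, at 285 ± 4.74 TPM. Libraries of E5.5 (211 ± 4.65 TPM) overlapped with those of E6.5, and libraries of E3.5 (279 ± 14.8 TPM) with those of E4.5. The 28 collagens ran from 22.3 ± 1.09 TPM at E3.5 to 217 ± 3.17 TPM at E7.5, and from 97.3 ± 9.36 TPM in embryo-derived 3D EpiSCs to 251 ± 14.9 TPM in 2D EpiSCs. Without Col18a1 the other 27 collagens summed to 123 ± 6.18 TPM in 2D EpiSCs and to between 26.98 and 43.9 TPM in the other 3 cultures, and to 114 ± 2.06 TPM at E7.5 against 12.2 to 38.3 TPM at earlier stages. Most genes peaked in 2D EpiSCs or at E7.5: 29 of the 42 genes detected in vitro had their highest mean in 2D EpiSCs. In vivo 28 of 43 had theirs at E7.5 (22 collagens and 6 integrins). The same count over all genes was not taken, and all tested genes leaned the same way in the calls defined below. In 2D EpiSCs against EpiLCs 15.2% were called higher and 5.14% lower, and from E6.5 to E7.5 10.6% and 1.94%. Col3a1 met the rule for description through 2D EpiSCs alone, and Itga4, Col9a1 and Col24a1 through E7.5 alone.

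**Figure D1:**
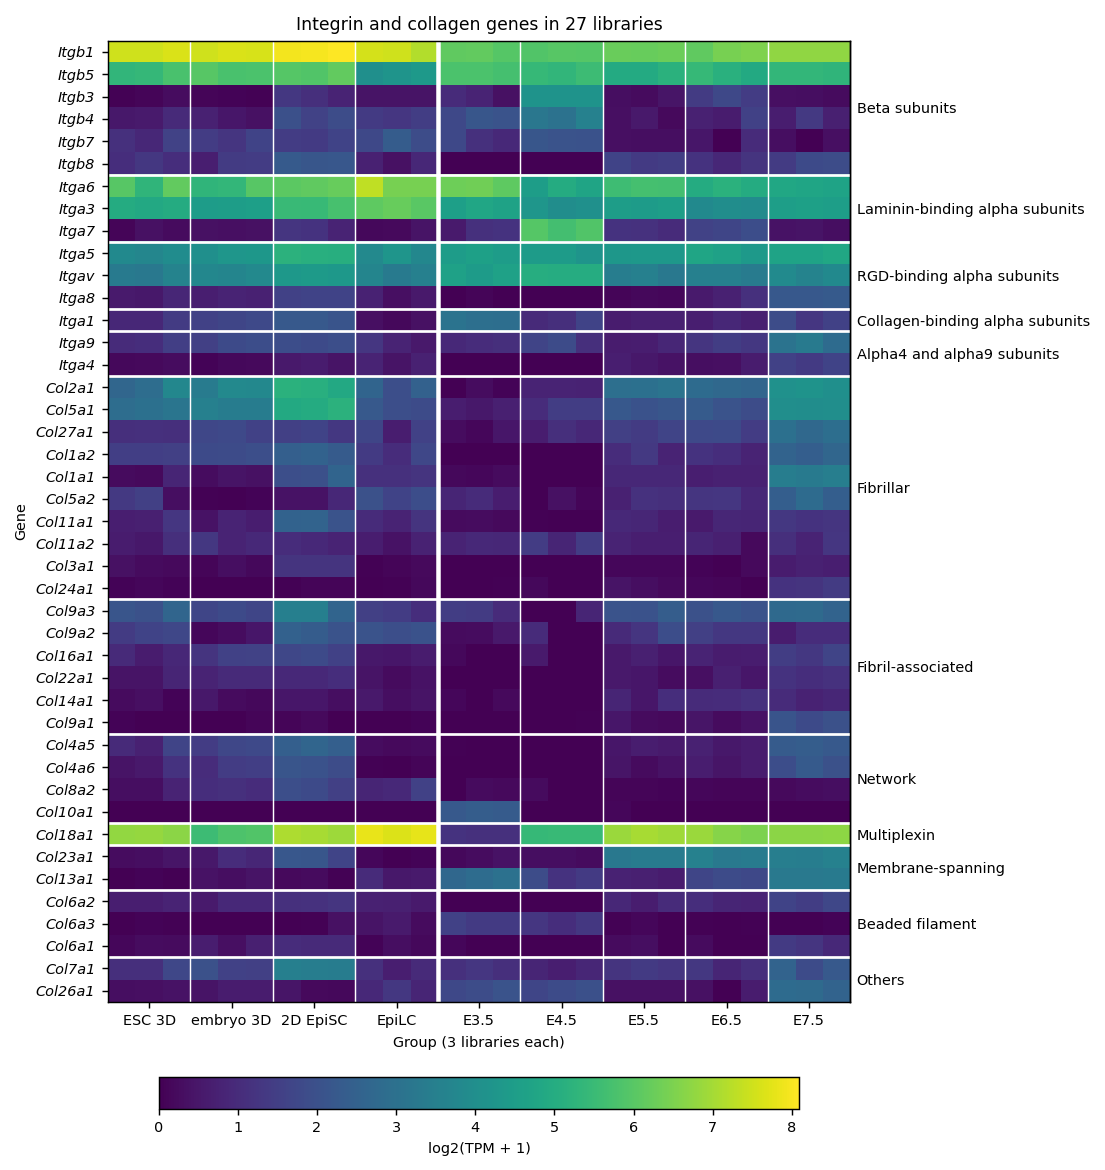
Levels of the 43 described genes in 27 libraries as log2(TPM + 1), with rows grouped by role and columns by group, 3 libraries each and a wide gap between in vitro and in vivo. Itgb1 and Col18a1 are the brightest rows, Col18a1 is dark at E3.5, Itga7 and Itgb3 are bright at E4.5, and the fibrillar collagens brighten in 2D EpiSCs and at E7.5.

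Itgb1, the beta subunit shared by most laminin, fibronectin and collagen receptors, had the highest mean TPM of the described integrins in 8 of 9 groups, and Itga6 exceeded it at E3.5. Its TPM were 181, 181 and 197 in ESC-derived 3D, 180.3, 198 and 195 in embryo-derived 3D, 245, 254 and 273 in 2D EpiSCs and 191, 180.0 and 141 in EpiLCs. In the embryo they were 68.7, 70.4 and 60.9 at E3.5, 58.2, 62.9 and 61.8 at E4.5, 74.4, 72.4 and 76.3 at E5.5, 67.9, 85.9 and 91.6 at E6.5 and 106, 107 and 107 at E7.5. The 2D EpiSC libraries were the highest in vitro and did not overlap any other culture, and the E7.5 libraries were the highest in vivo, but no comparison of Itgb1 passed the 2-fold rule used for calls (log2 fold change above 1 in size and adjusted p under 0.05). Itgb1 was -0.46 ± 0.11 log2 units (SE) in ESC-derived 3D EpiSCs against 2D EpiSCs, with an adjusted p of 0.00735 by limma. As a share of the 6 described beta subunits it made up 88.0% ± 2.75 in EpiLCs, 78.1% ± 0.927 in 2D EpiSCs and 46.3% ± 2.15 at E4.5, its lowest.

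Itgb5, a partner of Itgav in vitronectin receptors, was second among beta subunits. Its levels were 39.2, 40.6 and 53.1 TPM in ESC-derived 3D, 63.3, 53.8 and 55.1 TPM in embryo-derived 3D and 61.3, 58.7 and 69.7 TPM in 2D EpiSCs. EpiLCs were well below all of them, at 15.3, 17.1 and 19.3 TPM. Embryo-derived 3D and 2D EpiSCs overlapped, and ESC-derived 3D EpiSCs lay between them and EpiLCs. In the embryo E3.5 stood highest, at 53.5 ± 2.20 TPM without overlap with any later stage, and E5.5 lowest, at 31.4 ± 2.83 TPM. The mean was 42.0 TPM at E4.5, 35.1 TPM at E6.5, where libraries overlapped with those of E4.5, E5.5 and E7.5, and 39.5 TPM at E7.5.

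The other 4 beta subunits were lower, with single stages standing out. Itgb3, the second vitronectin receptor partner of Itgav, stood at 17.0, 16.8 and 16.7 TPM at E4.5. It was at 1.00, 0.755 and 0.299 TPM at E3.5, 0.239, 0.168 and 0.388 TPM at E5.5, 1.66, 2.35 and 1.72 TPM at E6.5 and 0.246, 0.226 and 0.179 TPM at E7.5, so that E4.5 stood far above every other stage. In vitro it stayed between 0.0230 and 1.46 TPM. Itgb8, whose dimer with Itgav activates latent TGF-beta, was listed at 0 in all 6 libraries of E3.5 and E4.5 and at 2.07, 1.57 and 1.78 TPM at E5.5. It then stood at 1.27, 0.857 and 1.31 TPM at E6.5 and 1.65, 2.54 and 2.69 TPM at E7.5. In culture Itgb8 was 1.08, 1.47 and 1.10 TPM in ESC-derived 3D, 0.615, 1.63 and 1.73 TPM in embryo-derived 3D, 3.88, 3.49 and 3.57 TPM in 2D EpiSCs and 0.686, 0.278 and 0.861 TPM in EpiLCs, with 2D EpiSCs above the rest. Itgb4, the partner of Itga6 in hemidesmosomes, peaked at E4.5 (8.31, 7.27 and 10.8 TPM), and Itgb7, known from lymphocytes, ranged from 0 to 4.10 TPM over all libraries.

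Among the laminin-binding alpha subunits, Itga6 and Itga3 were present in every library. Itga6 was highest in EpiLCs, at 158, 85.6 and 85.3 TPM, where replicate 1 stood far above the other 2. It was at 63.4, 37.9 and 69.9 TPM in ESC-derived 3D, 38.0, 40.5 and 62.7 TPM in embryo-derived 3D and 66.3, 68.0 and 72.9 TPM in 2D EpiSCs, where the ESC-derived libraries overlapped with both other groups and the 2D EpiSCs lay above the embryo-derived cells. In the embryo Itga6 went from 78.5, 79.7 and 67.5 TPM at E3.5 to 21.8, 30.9 and 25.6 TPM at E4.5, 46.7, 51.0 and 49.7 TPM at E5.5, 30.6, 34.7 and 30.6 TPM at E6.5 and 27.3, 26.1 and 25.0 TPM at E7.5. E3.5 stood highest, and E4.5 overlapped with E6.5 and E7.5. Itga3 was at 67.2, 72.6 and 63.9 TPM in EpiLCs, 43.5, 42.5 and 52.3 TPM in 2D EpiSCs, 30.6, 28.3 and 30.4 TPM in ESC-derived and 21.2, 21.9 and 22.6 TPM in embryo-derived 3D EpiSCs. These 4 groups did not overlap. In vivo its means ran from 14.0 ± 0.638 TPM at E6.5 to 24.7 ± 2.01 TPM at E3.5, through 16.2 TPM at E4.5, 21.7 TPM at E5.5 and 22.5 TPM at E7.5.

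Itga7, a laminin receptor subunit best known from muscle, marked E4.5. It was listed at 61.5, 49.7 and 58.2 TPM there, against 0.505, 1.20 and 1.28 TPM at E3.5, 1.26, 1.21 and 1.01 TPM at E5.5, 1.99, 2.21 and 2.78 TPM at E6.5 and 0.321, 0.352 and 0.229 TPM at E7.5. No in vitro library exceeded 1.36 TPM. At E4.5 Itga7 made up 57.1% ± 4.38 of the TPM of the 3 laminin-binding subunits, while Itga6 made up 17.0% ± 3.31 of all described alpha subunits there and 48.9% ± 2.32 at E3.5.

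The alpha subunits that bind the RGD tripeptide of fibronectin and vitronectin were Itga5, Itgav and Itga8. Itga5, which pairs with Itgb1 as the main fibronectin receptor, stood at 35.5, 33.3 and 32.6 TPM in 2D EpiSCs, 13.2, 12.3 and 14.4 TPM in ESC-derived 3D, 15.5, 18.0 and 18.3 TPM in embryo-derived 3D and 13.0, 17.7 and 12.4 TPM in EpiLCs. The 2D EpiSCs were the only culture above 20 TPM. Itga5 was called at no stage step, with means between 18.8 TPM at E5.5 and 25.7 ± 1.40 TPM at E7.5, and 22.0 TPM at E3.5, 19.7 TPM at E4.5 and 23.1 TPM at E6.5. Itgav, which pairs with Itgb1, Itgb3, Itgb5 and Itgb8, was highest at E4.5 (32.3, 31.3 and 31.5 TPM), above E3.5 (23.8, 20.8 and 23.8 TPM) and the later stages (9.69, 10.6 and 8.54 TPM at E5.5, 10.4, 10.6 and 9.42 TPM at E6.5 and 13.7, 11.2 and 13.2 TPM at E7.5). In culture it was 19.1, 20.1 and 19.1 TPM in 2D EpiSCs, 12.5, 11.8 and 12.9 TPM in embryo-derived 3D, 8.88, 8.49 and 11.3 TPM in ESC-derived 3D and 11.96, 9.14 and 10.4 TPM in EpiLCs, with 2D EpiSCs above the rest. Itga8, the nephronectin receptor subunit, reached 3.72, 3.67 and 3.95 TPM at E7.5 and at most 2.12 TPM elsewhere.

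Itga1, the one described collagen-binding subunit, was highest at E3.5 (7.44, 6.70 and 6.55 TPM) and in vitro in 2D EpiSCs (3.78, 3.84 and 3.30 TPM), with EpiLCs the lowest of all groups (0.258, 0.135 and 0.283 TPM). The collagen-binding Itga2, Itga10 and Itga11 are among the genes too low to be described. Itga9, a tenascin receptor subunit, was at 7.39, 8.86 and 6.06 TPM at E7.5 and at most 2.83 TPM in any other group, and its relative Itga4 stood at 1.95, 1.58 and 2.12 TPM at E7.5 and under 1 TPM in all other libraries.

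**Figure D2:**
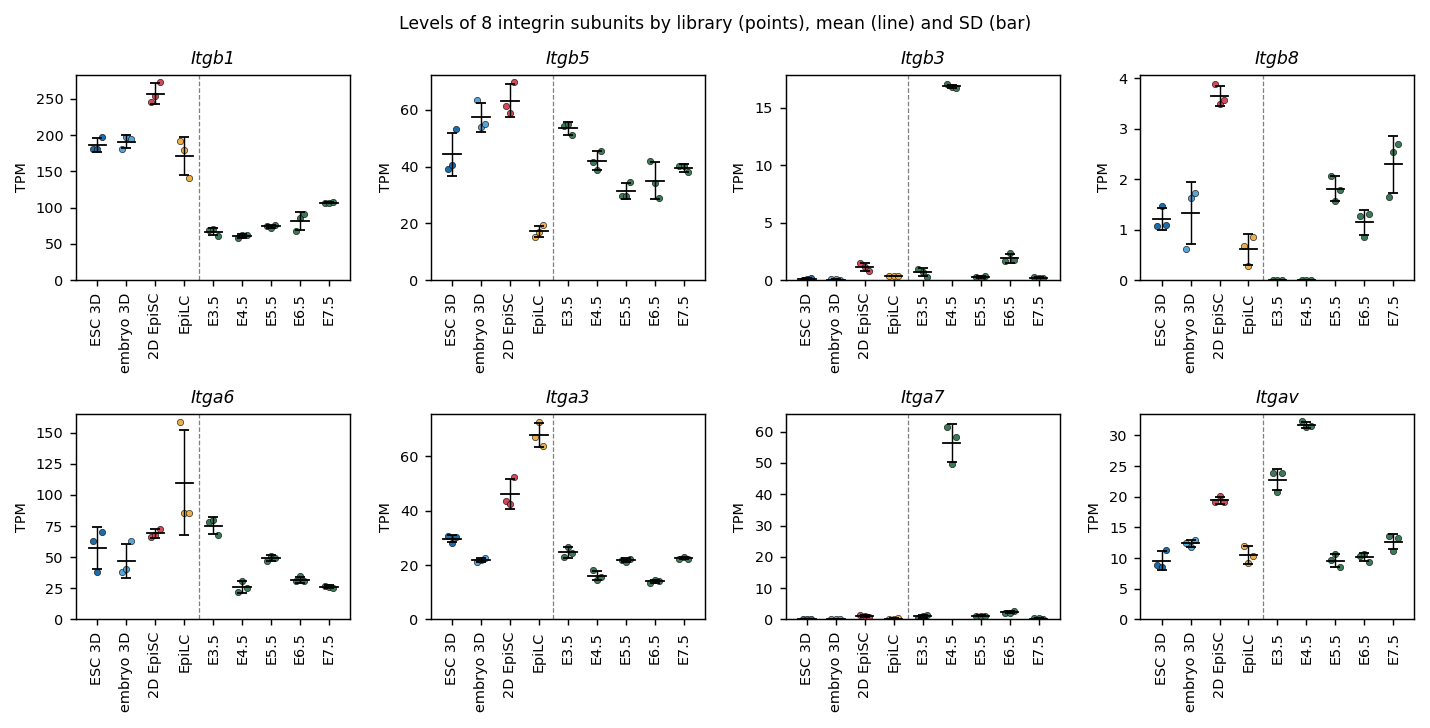
TPM of 8 integrin subunits in each library (points), with the group mean (line) and SD (bar), n = 3 per group, and a dashed line between in vitro and in vivo groups. Itgb1 is highest in 2D EpiSCs, Itgb5 is lowest in EpiLCs, and Itga7 and Itgb3 stand out at E4.5 alone.

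The most abundant described collagen in vitro was Col18a1, a chain whose cleavage yields endostatin and which carries heparan sulphate (chromosome 10, 77052178 to 77166548, minus strand of mm10). It was listed at 227, 202 and 221 TPM in EpiLCs, 137, 129 and 119 TPM in 2D EpiSCs, 110.3, 112 and 102 TPM in ESC-derived 3D and 46.0, 56.3 and 58.1 TPM in embryo-derived 3D EpiSCs. No 2 of these cultures overlapped. In the embryo it went from 1.26, 1.17 and 1.20 TPM at E3.5 through 42.4, 43.2 and 43.1 TPM at E4.5 to 117, 129.9 and 123 TPM at E5.5, then 117, 97.8 and 89.1 TPM at E6.5 and 103, 102 and 105 TPM at E7.5, where E6.5 overlapped with both neighbours and E7.5 lay below E5.5. It made up 89.0% ± 1.02 of the described collagen TPM in EpiLCs, 51.0% ± 0.690 in 2D EpiSCs, 5.43% ± 0.450 at E3.5, 76.6% ± 1.23 at E5.5 and 47.6% ± 0.502 at E7.5.

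The 10 described fibrillar collagens summed to 80.9 ± 0.298 TPM in 2D EpiSCs, against 28.5 ± 1.59 TPM in embryo-derived 3D, 21.6 ± 4.84 TPM in ESC-derived 3D and 16.1 ± 3.78 TPM in EpiLCs. In vivo the sum was 2.82 ± 0.202 TPM at E3.5, 4.66 ± 0.454 TPM at E4.5, 17.1 ± 0.188 TPM at E5.5, 15.5 ± 2.26 TPM at E6.5 and 61.1 ± 0.900 TPM at E7.5. Col2a1, the main cartilage collagen, and Col5a1, a chain that nucleates fibrils, carried most of it in 2D EpiSCs. Col5a1 stood at 29.4, 30.3 and 35.6 TPM in 2D EpiSCs, 10.5, 9.64 and 9.59 TPM in embryo-derived 3D, 6.49, 6.88 and 7.90 TPM in ESC-derived 3D and 3.77, 2.85 and 2.62 TPM in EpiLCs, without overlap. Its means in the embryo were 0.543 ± 0.114 TPM at E3.5, 1.51 ± 0.421 TPM at E4.5, 3.43 ± 0.293 TPM at E5.5, 3.31 ± 0.694 TPM at E6.5 and 14.8 ± 0.262 TPM at E7.5, with E5.5 and E6.5 overlapping.

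Its partner chain Col5a2 did not follow Col5a1 in culture. It was highest in EpiLCs (3.02, 2.07 and 2.74 TPM), where Col5a1 was lowest, and close to 0 in embryo-derived 3D EpiSCs (0.0380, 0 and 0.0449 TPM). In 2D EpiSCs it was 0.328, 0.314 and 0.855 TPM, and in ESC-derived 3D EpiSCs 1.55, 1.91 and 0.243 TPM, where replicate 3 stood apart from the other 2. In the embryo Col5a2 was 0.773, 0.991 and 0.569 TPM at E3.5, 0, 0.287 and 0.0785 TPM at E4.5, 0.671, 1.20 and 1.11 TPM at E5.5, 1.36, 1.43 and 0.862 TPM at E6.5 and 4.40, 6.05 and 4.37 TPM at E7.5, so that both type V chains had their highest in vivo level at E7.5.

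The 2 chains of type I collagen, the main collagen of connective tissue, were low in culture. In mm10 coordinates Col1a1 lies on chromosome 11 (94936224 to 94953042, plus strand) and Col1a2 on chromosome 6 (4504814 to 4541544, plus strand). Col1a1 was 2.81, 2.90 and 5.12 TPM in 2D EpiSCs, 1.20, 1.16 and 1.34 TPM in EpiLCs, 0.185, 0.145 and 0.791 TPM in ESC-derived 3D and 0.206, 0.341 and 0.283 TPM in embryo-derived 3D. Col1a2 was 4.52, 4.80 and 4.02 TPM in 2D EpiSCs, 2.53, 2.62 and 2.82 TPM in embryo-derived 3D, 1.83, 1.81 and 1.86 TPM in ESC-derived 3D and 1.62, 1.02 and 2.34 TPM in EpiLCs. The 2D EpiSCs stood above the other cultures for both chains. In the embryo Col1a1 was 0.137, 0.112 and 0.184 TPM at E3.5, listed at 0 in all 3 E4.5 libraries, and 0.873, 0.887 and 0.857 TPM at E5.5, 0.608, 0.671 and 0.669 TPM at E6.5 and 9.79, 8.78 and 9.92 TPM at E7.5. Col1a2 was at most 0.00918 TPM at E3.5 and E4.5, 1.04, 1.53 and 0.759 TPM at E5.5, 1.27, 1.10 and 0.753 TPM at E6.5 and 4.92, 4.33 and 5.43 TPM at E7.5. Both chains therefore stood highest at E7.5. Col3a1, the companion of type I in soft tissue, was 1.33, 1.33 and 1.31 TPM in 2D EpiSCs and 0.541, 0.657 and 0.603 TPM at E7.5. In the other cultures it ran from 0.0322 to 0.281 TPM and at E3.5 to E6.5 from 0 to 0.148 TPM, below the level needed for a test.

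The remaining collagens were lower, and several stood out in single groups. Col10a1, known from hypertrophic cartilage, was at 3.78, 4.24 and 4.05 TPM at E3.5 and listed at 0 in 23 of the 24 other libraries. Col23a1, which spans the membrane, was at 0.237, 0.223 and 0.169 TPM at E4.5 and at 8.49 to 10.8 TPM in the 9 libraries from E5.5 to E7.5. Among cultures it was clearly present in 2D EpiSCs alone (3.63, 3.49 and 2.17 TPM). Col13a1, also membrane-spanning, was high at both ends of the series, at 5.54, 6.25 and 7.07 TPM at E3.5 and 8.75, 8.72 and 9.07 TPM at E7.5, and at 0.694, 0.651 and 0.519 TPM at E5.5 between them. Of the 3 chains of type IX collagen, Col9a1 was above 1 TPM at E7.5 alone (3.27, 2.55 and 3.05 TPM), Col9a2 was lowest among cultures in embryo-derived 3D EpiSCs (0.108, 0.201 and 0.416 TPM) and Col9a3 had its highest mean in 2D EpiSCs (10.3, 10.2 and 5.06 TPM), where replicate 3 lay below the other 2. The type VI chains Col6a1, Col6a2 and Col6a3 reached at most 1.60, 2.30 and 1.96 TPM, Col6a3 at E3.5 and the other 2 at E7.5. Col27a1, a fibrillar chain of cartilage, reached 6.98 TPM and Col26a1 6.07 TPM, both at E7.5, where the fibrillar Col24a1 (at most 1.63 TPM) and the fibril-associated Col22a1 (1.29 TPM) also peaked. Col16a1 (2.53 TPM), the network chain Col8a2 (2.87 TPM) and the X-linked Col4a5 (5.20 TPM) peaked in 2D EpiSCs, and Col4a6 (3.93 TPM) at E7.5, while Col11a2 (1.69 TPM) peaked at E4.5 and Col14a1 (1.25 TPM) at E6.5. Apart from Col16a1, Col26a1 and Col27a1, these chains were too low for a test or X-linked.

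**Figure D3:**
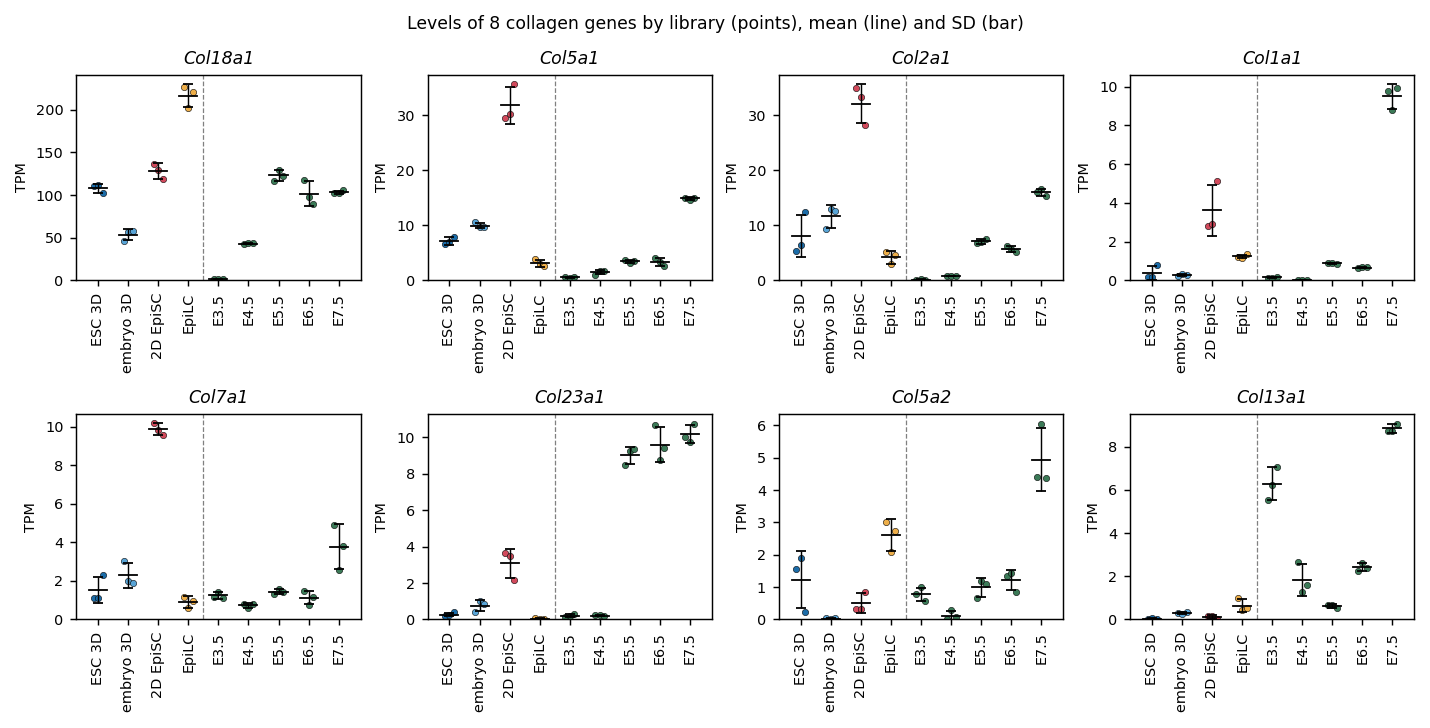
TPM of 8 collagen genes in each library (points), with the group mean (line) and SD (bar), n = 3 per group, and a dashed line between in vitro and in vivo groups. Col5a1, Col2a1, Col1a1 and Col7a1 are highest among cultures in 2D EpiSCs and stand highest in vivo at E7.5, Col5a2 is highest among cultures in EpiLCs, and Col18a1 rises from E3.5 to E5.5.

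Differences between groups were tested with limma over all 11541 genes in vitro and 11880 in vivo that were autosomal, protein-coding and above 2 TPM in at least 3 libraries of the setting. Of the 43 genes, 24 were tested in vitro and 28 in vivo, and 12 in neither. The filter was passed through 2D EpiSC libraries alone by 5 genes in vitro (Col1a1, Col11a1, Col23a1, Itgb4 and Itgb8) and through EpiLC libraries alone by Col5a2. In vivo 6 genes passed it through E7.5 libraries alone (Col1a1, Col1a2, Col5a2, Col7a1, Col9a1 and Itga8) and Col10a1 through E3.5. These genes had to differ from at least some groups, so the counts that follow describe the tested genes, do not stand for all 43, and are also given without the genes that passed through 1 of the 2 compared groups alone. Every called gene of the 43 had no overlap between the libraries of the 2 groups. A call between groups of 3 libraries favours this, and its share over all tested genes was not taken, so it adds no support.

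Of the 24 tested genes 6 collagens and 2 integrins fell in both 3D cultures against 2D EpiSCs, and none was called higher by limma or at an unadjusted p under 0.05 (0 in each comparison). In ESC-derived 3D EpiSCs 10 of 24 tested genes fell (6 collagens and 4 integrins), and across all tested genes 9.25% were called lower and 0.633% higher. In embryo-derived 3D EpiSCs 12 of 24 fell (9 collagens and 3 integrins), with 7.75% of all genes called lower and 1.07% higher. Without the 5 genes that passed the filter through 2D EpiSCs alone, all called lower in both, 5 of 19 (3 collagens and 2 integrins) and 7 of 19 (6 collagens and 1 integrin) fell, while 8.41% and 6.93% of all tested genes were called lower after the same step. Both comparisons share the 2D EpiSC libraries, so they are not independent of each other. Genes that fell in both were Col7a1, Col5a1, Col2a1, Col1a1, Col11a1, Col23a1, Itgb4 and Itgb8.

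Col7a1, the anchoring fibril collagen, fell in both 3D cultures. It stood at 10.2, 9.84 and 9.61 TPM in 2D EpiSCs, 1.12, 1.12 and 2.32 TPM in ESC-derived 3D and 3.03, 1.98 and 1.87 TPM in embryo-derived 3D EpiSCs, and both 3D cultures lay well below 2D. Its log2 fold change was -2.14 (SE 0.19, adjusted p = 1.44e-05) in ESC-derived and -1.74 (SE 0.19, adjusted p = 4.32e-05) in embryo-derived 3D EpiSCs. Col5a1 had a log2 fold change of -2.02 (SE 0.12, adjusted p = 1.4e-06) and -1.58 (SE 0.12, adjusted p = 3.47e-06) in the same order. Col2a1 was at 35.0, 33.3 and 28.3 TPM in 2D EpiSCs, 5.36, 6.43 and 12.4 TPM in ESC-derived 3D and 9.24, 13.0 and 12.7 TPM in embryo-derived 3D, and replicate 3 of the ESC-derived cells lay above the other 2. It fell in both, with -1.94 (SE 0.26, adjusted p = 0.000196) and -1.40 (SE 0.26, adjusted p = 0.00175). Col1a1 changed by -1.74 (SE 0.20, adjusted p = 6.62e-05) and -1.82 (SE 0.20, adjusted p = 4.16e-05). Col11a1, the fibrillar partner of cartilage fibrils, went from 4.81, 4.99 and 3.20 TPM in 2D EpiSCs to 0.588, 0.622 and 1.42 TPM and 0.315, 0.757 and 0.550 TPM. Its log2 fold change was -1.52 (SE 0.19, adjusted p = 0.000148) in ESC-derived and -1.78 (SE 0.19, adjusted p = 4.32e-05) in embryo-derived cells.

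Col9a2, a chain of fibril-associated type IX collagen, fell in embryo-derived 3D EpiSCs. Its levels were 4.67, 4.08 and 3.20 TPM in 2D EpiSCs, 0.108, 0.201 and 0.416 TPM in embryo-derived 3D and 1.67, 2.06 and 2.32 TPM in ESC-derived 3D EpiSCs. The embryo-derived libraries lay below all others, and their log2 fold change was -2.002 (SE 0.13, adjusted p = 1.13e-06). The other called genes of the ESC-derived cells, Col23a1, Itga5, Itga1, Itgb4 and Itgb8, had log2 fold changes from -1.67 to -1.07. The other called genes of the embryo-derived cells, Col5a1, Col9a3, Col2a1, Itgb4, Col18a1, Col23a1, Itgb8 and Itga3, ranged from -1.58 to -1.03. Itgb5 was at -0.51 (adjusted p = 0.00994) and -0.14 (adjusted p = 0.465), and Itgav at -0.96 (adjusted p = 0.000118) and -0.61 (adjusted p = 0.00246), all short of the 2-fold rule. When TPM were rescaled by the median of ratios between libraries, which moves the median of all genes in the ESC-derived comparison from -0.21 to -0.01, Itgb4, Itgb8 and Itga1 in ESC-derived and Itga3 and Itgb8 in embryo-derived cells were no longer called. Fibroblast or decidua markers summed to 15.1 to 15.6 TPM in 2D EpiSCs, 12.3 to 16.3 TPM in ESC-derived and 5.25 to 6.01 TPM in embryo-derived 3D EpiSCs, mesoderm markers to 41.6 to 56.6, 18.5 to 31.6 and 40.1 to 83.8 TPM and endoderm markers to 51.9 to 68.5, 1.80 to 15.1 and 12.7 to 25.0 TPM, of which the endoderm sum was higher in 2D than in both 3D cultures, with 5 of 9 markers above 1 TPM and Afp at 0, the fibroblast or decidua sum higher than in embryo-derived cells and the mesoderm sum higher than in ESC-derived cells. Their part in these results was not tested.

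**Figure D4:**
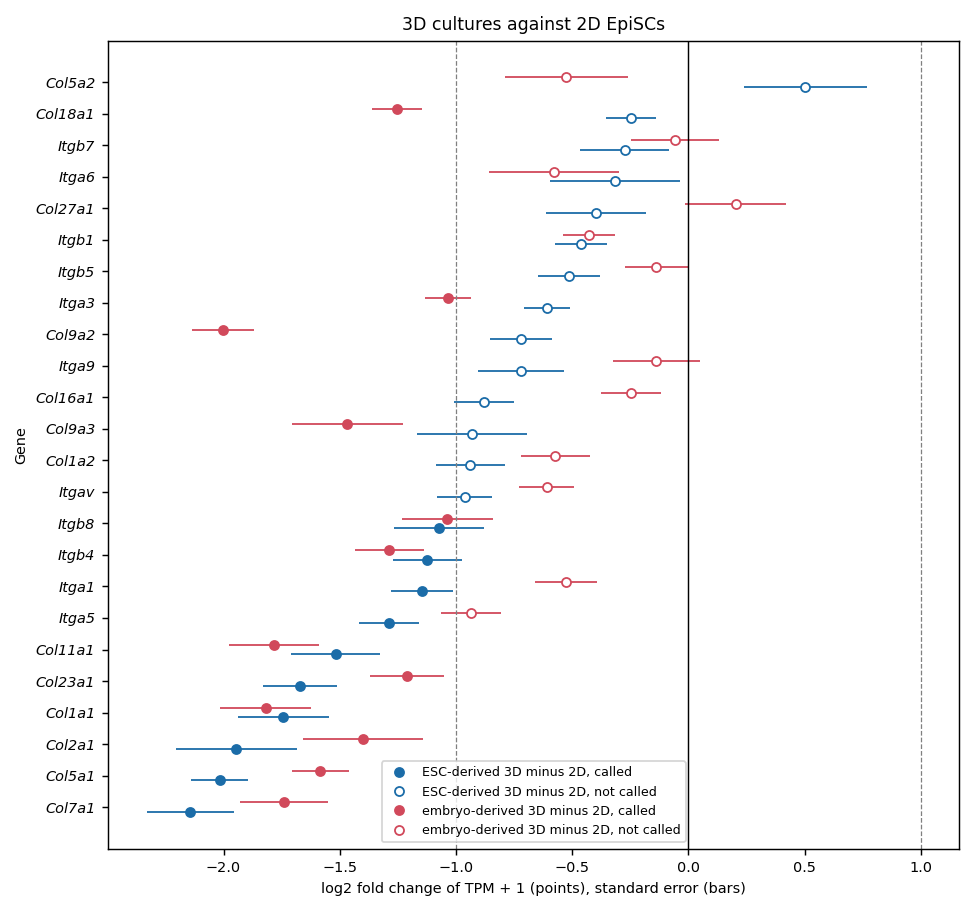
Log2 fold change of TPM + 1 (points) with its standard error (bars) for the 24 tested genes in each 3D culture against 2D EpiSCs, filled where called, with dashed lines at a 2-fold change. Col7a1, Col5a1, Col2a1, Col1a1 and Col11a1 lie left of the lower line in both cultures, Col18a1 and Col9a2 in embryo-derived cells alone, and no filled point lies right of 0.

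Of the genes lower in both 3D cultures, 7 were also higher in 2D EpiSCs than in EpiLCs (Col1a1, Col2a1, Col5a1, Col7a1, Col11a1, Col23a1 and Itgb8). All 3 comparisons share the 2D EpiSC libraries, and Col1a1, Col11a1, Col23a1 and Itgb8 passed the filter through those libraries alone. The share of all tested genes with the same calls was not taken, so the 7 genes only serve to choose promoters. RefSeq promoters (build GRCm38.p6) were at hand for 5 of them and for 32 of the 43 genes; Col1a1 and Col2a1 are named only. The 250 bases upstream of the RefSeq start are shown, 5′ to 3′ on the gene's strand, because these 5 genes shared both calls. For Itgb8 this start differs from that of the expression table, where the gene spans 119158022 to 119238802. Its window therefore lies inside the gene as deposited. Capitals mark 3 motifs, searched on both strands. The GC box was searched as GGGCGG on one strand and as CCGCCC on the opposite strand. The CCAAT box was searched by its name and by the complement ATTGG, and the TATA box was searched as TATAAA and, read from the opposite strand, by the letters TTTATA.
Col5a1, chr2:27886175-27886424, plus strand: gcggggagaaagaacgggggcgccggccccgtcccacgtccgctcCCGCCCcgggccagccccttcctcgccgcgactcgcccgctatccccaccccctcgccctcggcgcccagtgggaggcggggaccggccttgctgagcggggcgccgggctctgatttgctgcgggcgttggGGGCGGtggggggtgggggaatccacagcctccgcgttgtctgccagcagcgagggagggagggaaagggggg
Col7a1, chr9:108953336-108953585, plus strand: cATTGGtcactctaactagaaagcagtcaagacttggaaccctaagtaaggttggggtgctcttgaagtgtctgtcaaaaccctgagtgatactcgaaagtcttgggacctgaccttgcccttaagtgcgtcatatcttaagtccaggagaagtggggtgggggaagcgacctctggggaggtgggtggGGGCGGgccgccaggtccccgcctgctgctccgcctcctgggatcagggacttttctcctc
Col11a1, chr3:114030290-114030539, plus strand: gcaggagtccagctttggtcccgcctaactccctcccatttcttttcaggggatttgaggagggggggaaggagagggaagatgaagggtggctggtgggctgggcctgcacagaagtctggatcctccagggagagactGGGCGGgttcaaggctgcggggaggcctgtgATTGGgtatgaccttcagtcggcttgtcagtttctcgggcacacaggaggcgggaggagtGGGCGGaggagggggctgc
Col23a1, chr11:51289670-51289919, plus strand: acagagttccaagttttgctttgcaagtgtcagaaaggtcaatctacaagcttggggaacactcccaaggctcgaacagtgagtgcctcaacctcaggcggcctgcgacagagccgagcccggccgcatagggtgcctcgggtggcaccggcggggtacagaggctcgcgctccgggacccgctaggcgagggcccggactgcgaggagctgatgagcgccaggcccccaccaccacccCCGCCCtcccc
Itgb8, chr12:119238277-119238526, minus strand: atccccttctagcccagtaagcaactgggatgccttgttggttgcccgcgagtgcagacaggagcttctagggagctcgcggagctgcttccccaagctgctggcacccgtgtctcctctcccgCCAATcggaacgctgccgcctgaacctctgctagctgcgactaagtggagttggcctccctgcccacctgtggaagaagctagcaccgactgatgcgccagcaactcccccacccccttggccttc
Col5a1 and Col11a1 held 2 GC boxes each, Col7a1 and Col23a1 held 1 each, Col7a1, Col11a1 and Itgb8 held 1 CCAAT box each, and none of the 5 windows held TATAAA. The Col5a1 window was 76.4% G or C with 28 CpG dinucleotides, and that of Col7a1 56.4% with 7. Of the 32 promoters of described genes 59.4% held a GC box, 21.9% a CCAAT box and 12.5% a TATA box, against 32.7%, 33.9% and 12.4% of 32841 promoters of all genes. The 2 sets were built differently. The first holds 1 promoter per gene, nearest to its 5′ end, for genes that met a minimum TPM. The second holds all promoters at hand without either choice, so the shares are not like for like. A match describes the letters of the window and no more.

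The 2D EpiSCs stood above EpiLCs for 14 of 24 tested genes. These were 9 collagens and 5 integrins, and Col5a2 fell, while 15.2% of all genes were called higher and 5.14% lower. Without the 6 genes that passed the filter through 2D EpiSCs or EpiLCs alone, 10 of 18 rose, against 14.8% of all genes after the same step. Col5a1 rose by 3.01 (SE 0.12, adjusted p = 4.77e-09) on the log2 scale, Col2a1 by 2.69 (SE 0.26, adjusted p = 4.94e-06) and Col7a1 by 2.52 (SE 0.19, adjusted p = 6.64e-07), from 1.17, 0.597 and 0.970 TPM in EpiLCs. Col23a1 rose by 1.94 (SE 0.16, adjusted p = 1.37e-06), from 0.1001, 0 and 0.0506 TPM. Col5a2 had a log2 fold change of -1.28 (SE 0.26, adjusted p = 0.00146), the reverse of its partner chain. The other genes that rose were Itga1, Col9a3, Itgb5, Itgb8, Col11a1, Itga5, Col16a1, Col1a2, Col1a1 and Itga9, by 1.01 to 1.92. With rescaled TPM, Itga5, Col1a1, Col1a2 and Itga9 were no longer called, and Itga9 also lost the call without 2D EpiSC replicate 1 or 3 or EpiLC replicate 2 or 3, down to 0.85. Endoderm markers summed to 51.9 to 68.5 TPM in 2D EpiSCs and 7.22 to 11.1 TPM in EpiLCs, mesoderm markers to 41.6 to 56.6 and 3.42 to 6.95 TPM and fibroblast or decidua markers to 15.1 to 15.6 and 33.0 to 41.4 TPM, the last being lower in 2D EpiSCs. Their part in these results was not tested. Col18a1 went the other way from most collagens without passing the 2-fold rule (-0.75, adjusted p = 0.000101). The X-linked Col4a5 and Col4a6 were left out with the sex chromosomes. In a fit of all genes they were 2.27 and 1.98 log2 units higher in 2D EpiSCs than in EpiLCs, both called. ESC-derived 3D EpiSCs were lower than 2D EpiSCs by log2 fold changes of -1.39 and -1.32, also called, and embryo-derived 3D EpiSCs fell short of the rule at -0.86 and -0.70.

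Against EpiLCs, whose libraries both comparisons share, Itgb5 was higher and Itga3 lower in both 3D cultures. In ESC-derived 3D EpiSCs 1 of 24 tested genes rose and 1 fell, with 5.33% and 7.11% of all genes called higher and lower. Without Col5a2, which passed the filter through EpiLCs alone, 1 of 23 rose and 1 fell, against 5.44% and 4.99% of all genes. Itgb5 rose by 1.31 (SE 0.13, adjusted p = 1.35e-05) and Itga3 had a log2 fold change of -1.16 (SE 0.10, adjusted p = 2.66e-06). Col5a1 (0.99, adjusted p = 5.41e-05) and Col18a1 (-0.999, adjusted p = 1.83e-05) lay just inside the 2-fold line. In embryo-derived 3D EpiSCs 4 of 24 rose and 5 fell, with 10.5% and 8.28% of all genes called higher and lower. Without Col5a2 4 of 23 rose and 4 fell, against 10.7% and 6.22% of all genes. Itgb5 rose by 1.68 (SE 0.13, adjusted p = 1.02e-06), Col5a1 by 1.43 (SE 0.12, adjusted p = 1.78e-06) and Col2a1 by 1.29 (SE 0.26, adjusted p = 0.00128). Itga1 stood at 1.99, 2.21 and 2.45 TPM in embryo-derived 3D EpiSCs and rose by 1.39 (SE 0.13, adjusted p = 4.7e-06). Col18a1 had a log2 fold change of -2.005 (SE 0.11, adjusted p = 3.86e-08) and Col5a2 one of -1.81 (SE 0.26, adjusted p = 0.000138). Col9a2 stood at 3.16, 2.89 and 3.10 TPM in EpiLCs and had a log2 fold change of -1.71 (SE 0.13, adjusted p = 7.83e-07), and Itga3 one of -1.59 (SE 0.10, adjusted p = 1.29e-07). Itga6 was at -1.18 (adjusted p = 0.00381), and without EpiLC replicate 1 it was at -0.88 and no longer called.

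The 2 kinds of 3D culture differed in 3 of 24 tested genes, all collagens higher in ESC-derived cells, with 1.98% of all genes called higher and 1.98% lower. Col9a2 differed by 1.28 (SE 0.13, adjusted p = 7.87e-05), Col5a2 by 1.03 (SE 0.26, adjusted p = 0.0209) and Col18a1 by 1.01 (SE 0.11, adjusted p = 9.9e-05). No gene was called lower by limma, although 10 had a lower level at an unadjusted p under 0.05. No integrin was called, and Itgb1 differed by -0.03 ± 0.11 (SE). The Col5a2 difference rests on ESC-derived replicates 1 and 2: without either of them, and without embryo-derived replicate 2 or 3, it was not called, and over all alternatives its adjusted p was at most 0.248. Col18a1, which lies close to the 2-fold line, also lost the call without ESC-derived replicate 1 or 2 or embryo-derived replicate 1, down to 0.90.

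Genes that act with integrins and collagens were followed in 5 lists. They are read here against the shares of all tested genes called in the same comparison, 9.25% and 7.75% lower in the ESC-derived and embryo-derived 3D cultures against 2D EpiSCs. Of 13 tested matrix ligands 10 fell in each 3D culture and none rose, or 9 of 12 without Tnc, which passed the filter through 2D EpiSCs alone. Thbs1 (thrombospondin) changed by -3.84 (SE 0.32, adjusted p = 9.7e-06) in ESC-derived and -3.93 (SE 0.32, adjusted p = 4.75e-06) in embryo-derived cells, and Fn1 (fibronectin) by -1.95 and -2.46. Of 23 tested genes that modify, secrete or cross-link collagen 7 and 4 fell, among them the cross-linking Loxl2 (-3.03 and -2.67) and the proline hydroxylase P4ha2 (-1.17 and -1.01). Both spread widely between 3D libraries. Loxl2 was at 5.20 ± 5.52 TPM in ESC-derived and 6.45 ± 5.72 TPM in embryo-derived cells, and P4ha2 at 7.80 ± 3.74 and 8.79 ± 4.11 TPM. In 2D EpiSCs against EpiLCs, where 15.2% and 5.14% of all genes were called higher and lower, 9 of these 23 genes rose and 1 fell, and the collagen chaperone Serpinh1 rose by 2.30. Of 20 genes of integrin adhesions 3 and 5 fell in the 3D cultures, including Vcl (vinculin) and the parvins Parva and Parvb, while kindlin-1, Fermt1, was listed at 0 in all 3 embryo-derived libraries. Of 6 matrix proteases and inhibitors 3 and 1 fell, and the collagen receptor Ddr1 fell in both (-1.26 and -1.502). Against EpiLCs the counts of genes that rose and fell were 1 and 1 (integrin adhesions), 3 and 1 (collagen making), 0 and 3 (ligands) and 1 and 1 (proteases) in ESC-derived cells, and 1 and 3, 4 and 2, 0 and 4 and 3 and 1 in embryo-derived cells, with Ddr1 not called. The shares of all genes called higher and lower were 5.33% and 7.11% in the former and 10.5% and 8.28% in the latter, so that 1 of 20 adhesion genes in either direction is near the share over all genes. ESC-derived exceeded embryo-derived 3D EpiSCs for 1 gene of each of the first 4 lists (Fermt1, Loxl1, Nid2 and Mmp2), with 1.98% of all genes called higher. In the 2D EpiSCs against EpiLCs 4 of 20 adhesion genes rose, near the share over all genes, as did 6 of 13 ligands (5 of 12 without Tnc), 3 of 6 protease genes and Ddr1.

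Between E3.5 and E4.5 integrin subunits and collagens moved in both directions. Of 28 tested genes 4 rose and 5 fell, while 5.88% of all genes were called higher and 11.9% lower. Without Col10a1, which passed the filter through E3.5 alone, 4 of 27 rose and 4 fell, against 5.74% and 10.5% of all genes after the same step. Itga7 rose by 4.87 (SE 0.15, adjusted p = 1.34e-11), Col18a1 by 4.31 (SE 0.09, adjusted p = 5.39e-13), Itgb3 by 3.43 (SE 0.14, adjusted p = 2.07e-10) and Itgb4 by 1.28 (SE 0.24, adjusted p = 0.000572) from 2.34, 3.504 and 3.22 TPM. Itga1 had a log2 fold change of -1.76 (SE 0.17, adjusted p = 1.17e-06) and went to 0.947, 1.11 and 2.11 TPM, Itga6 one of -1.502 (SE 0.12, adjusted p = 1.2e-07), and Col13a1 one of -1.39 (SE 0.14, adjusted p = 2.35e-06) with 2.65, 1.25 and 1.59 TPM at E4.5. Col10a1 was listed at 0 in all 3 E4.5 libraries and was called lower (adjusted p = 1.12e-11). Col9a3, at 1.78, 1.66 and 1.01 TPM and 0, 0 and 0.791 TPM, was also called (-1.02), but not once E3.5 replicate 1 or 2 or E4.5 replicate 1 or 2 was left out, down to -0.88. Of the lists, 8 of 14 tested matrix ligands fell and 1 rose, among them Lamb1 (-2.21), Lama1 (-2.13), Col4a1 (-1.55) and Col4a2 (-1.43), 6 of 20 adhesion genes fell and 1 rose, 4 of 21 collagen-making genes fell and 2 rose, 1 of 7 protease genes fell and 2 rose, and Ddr2 fell (-2.95), to be read against the 5.88% higher and 11.9% lower of all genes. All 5 trophoblast markers were above 1 TPM at both stages, but they moved in opposite directions under similar sums. Elf5 (47.3 to 53.7, then 124 to 130 TPM) and Krt7 (5.18 to 6.52, then 48.4 to 57.3 TPM) rose. Tfap2c rose too (37.6 to 43.8, then 121 to 125 TPM). Cdx2 (157 to 168, then 22.2 to 26.3 TPM) and Gata3 (203.5 to 220, then 84.6 to 93.7 TPM) fell. The endoderm sum was higher at E3.5 (values above), although Cubn of that list rose. Both marker lists are meant in what follows. Their part in these changes was not tested.

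From E4.5 to E5.5 several integrins high at E4.5 fell and several collagens rose. Of 28 tested genes 6 rose and 6 fell, with 14.9% of all genes called higher and 9.47% lower, and 5 of the 6 that fell were integrins while 5 of the 6 that rose were collagens. Itga7 changed by -4.73 (SE 0.15, adjusted p = 9.6e-12), Itgb3 by -3.82 (SE 0.14, adjusted p = 3.75e-11), Itgb4 by -2.91 (SE 0.24, adjusted p = 2.08e-07) to 0.272, 0.481 and 0.143 TPM, and Itgb7 by -1.77 (SE 0.23, adjusted p = 1.37e-05), from 3.47, 3.18 and 3.09 to 0.256, 0.244 and 0.221 TPM. Itgav (-1.63) and Col26a1 (-1.48) fell too. Col23a1 rose by 3.05 (SE 0.09, adjusted p = 4.96e-12) to 8.49, 9.26 and 9.34 TPM, and Col2a1 by 2.21 (SE 0.09, adjusted p = 1.12e-10), from 0.754, 0.741 and 0.708 to 6.69, 6.88 and 7.57 TPM. Col9a3 rose by 1.89 (SE 0.20, adjusted p = 2.11e-06) to 3.23, 3.16 and 4.23 TPM, and Col18a1 by 1.499 (SE 0.09, adjusted p = 8.86e-09). Itgb8, listed at 0 before, was called higher with an adjusted p of 1.89e-07, and Col1a2 was called at 1.05, but at 0.92 and not called without E5.5 replicate 2. Itga6 (0.90, adjusted p = 1.29e-05) stayed within the 2-fold line, and Col1a1, listed at 0 at E4.5, fell short of the 2-fold rule (adjusted p = 8.29e-08). Among the lists 9 of 20 adhesion genes fell and 1 rose, with Ptk2b at -2.68 and zyxin (Zyx) at -1.94, 3 of 14 ligands fell and none rose, including Fn1 (-1.85), 4 of 21 collagen-making and 4 of 7 protease genes rose with 1 and 0 falling, and Ddr1 rose (1.66) while Ddr2 fell (-2.11), to be read against the 14.9% higher and 9.47% lower of all genes. At E5.5 trophoblast markers summed to 14.0 to 15.1 TPM, below E4.5, with 5 of 5 above 1 TPM, endoderm markers summed to 862 to 924 TPM, above E4.5, with 9 of 9 above 1 TPM, and RNA of the first 2 stages was fragmented at a lower temperature for longer than that of later stages. The part of the marker sums was not tested, and the protocol cannot be told apart from the stage.

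Few genes changed from E5.5 to E6.5. Of 28 tested genes 2 rose, Itgb3 by 1.20 (SE 0.14, adjusted p = 0.000145) and Col13a1 by 1.07 (SE 0.14, adjusted p = 0.000449), from 0.694, 0.651 and 0.519 to 2.23, 2.60 and 2.39 TPM, and none was called lower by limma, although 6 were lower at an unadjusted p under 0.05 (among them Itga3 at -0.60, adjusted p = 0.000984, and Itga6 at -0.61, adjusted p = 0.00518). Over all genes 0.715% were called higher and 0.480% lower. Fn1, whose product binds Itga5 with Itgb1, rose by 1.23, and Mmp9, which passed the filter through E6.5 alone, by 2.01. These were 1 of 14 ligands and 1 of 7 protease genes, and no gene of the adhesion, collagen-making or Ddr lists was called. From E5.5 to E6.5 the mesoderm markers, 6 of 6 above 1 TPM at both stages, went from 27.3 to 28.9 to 160.2 to 223 TPM and the endoderm markers from 862 to 924 to 1347 to 1362 TPM. Their part in these changes was not tested.

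From E6.5 to E7.5 10 of 14 tested collagens rose, fibrillar chains among them. Of 28 tested genes 12 rose (10 collagens and 2 integrins) and 2 integrins fell, with 10.6% of all genes called higher and 1.94% lower. Without the 6 genes that passed the filter through E7.5 alone, all called higher, 6 of 22 rose (5 of 9 collagens and 1 of 13 integrins), while 8.56% of all tested genes were called higher after the same step. Col1a1 rose by 2.67 (SE 0.07, adjusted p = 3.95e-12), Col26a1 by 2.41 (SE 0.14, adjusted p = 1.45e-08) from 0.274, 0 and 0.519 to 6.07, 5.98 and 4.91 TPM, and Col5a1 by 1.89 (SE 0.13, adjusted p = 1.05e-07). Itga9 rose by 1.73 (SE 0.17, adjusted p = 3.48e-06), from 1.36, 1.74 and 1.48 TPM. Col9a1, Col1a2, Col13a1, Itga8, Col5a2, Col2a1, Col27a1 and Col7a1 rose by 1.15 to 1.62. Itga7 had a log2 fold change of -1.35 (SE 0.15, adjusted p = 7.09e-06) and Itgb3 one of -1.25 (SE 0.14, adjusted p = 8.24e-06). Itgb1 was at 0.39 (adjusted p = 0.00585), short of the 2-fold rule. Rescaled TPM, which move the median of all genes from 0.31 to 0.01, left Col7a1 and Col27a1 uncalled. In a fit of all genes the X-linked Col4a5 and Col4a6 were called higher by 1.70 and 1.51.

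Of 14 tested matrix ligands 4 rose and 4 fell at the same step. Fn1 rose by 1.91 (SE 0.11, adjusted p = 1.25e-08), Tnc (tenascin, a ligand of Itga9) by 1.82 (SE 0.09, adjusted p = 3.38e-09) and Vtn (vitronectin) by 1.70, while the basement membrane genes Nid1 (-1.89), Lama1 (-1.21) and Lamc1 (-1.10) fell, as did Spp1 (-1.29). Adamts2, which trims fibrillar procollagen, rose by 1.86 along with P3h2 and Pcolce, 3 of 21 collagen-making genes, and none fell. Tnc, Vtn and Adamts2 passed the filter through E7.5 alone and Mmp9 through E6.5 alone, and without them 2 of 12 ligands and 2 of 20 collagen-making genes rose. Of 20 adhesion genes Parva (1.93) and Tln2 (1.12) rose, 2 of 7 protease genes rose and Mmp9 fell. The shares of adhesion and collagen-making genes that rose are near the 10.6% of all genes. Marker sums differed too. Mesoderm markers, all 6 above 1 TPM at both stages, summed to 160.2 to 223 TPM at E6.5 and 236 to 246 TPM at E7.5. Of these T, Hand1 and Twist1 rose, while Mesp1 (48.9 to 73.3, then 13.3 to 14.6 TPM), Mixl1 and Snai1 fell. Fibroblast or decidua markers summed to 4.12 to 6.26 and 16.4 to 18.1 TPM, with 2 of 6 above 1 TPM at each stage. The rise was mostly in Pdgfrb (1.13 to 2.42, then 10.5 to 11.1 TPM). Dcn, Lum, Postn and Prl8a2 stayed below 1 TPM at E7.5. Blood markers summed to 3.95 to 6.96 and 27.4 to 34.1 TPM and epiblast markers to 985 to 1015 and 349 to 372 TPM. Their part in the rise of collagens was not tested.

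**Figure D5:**
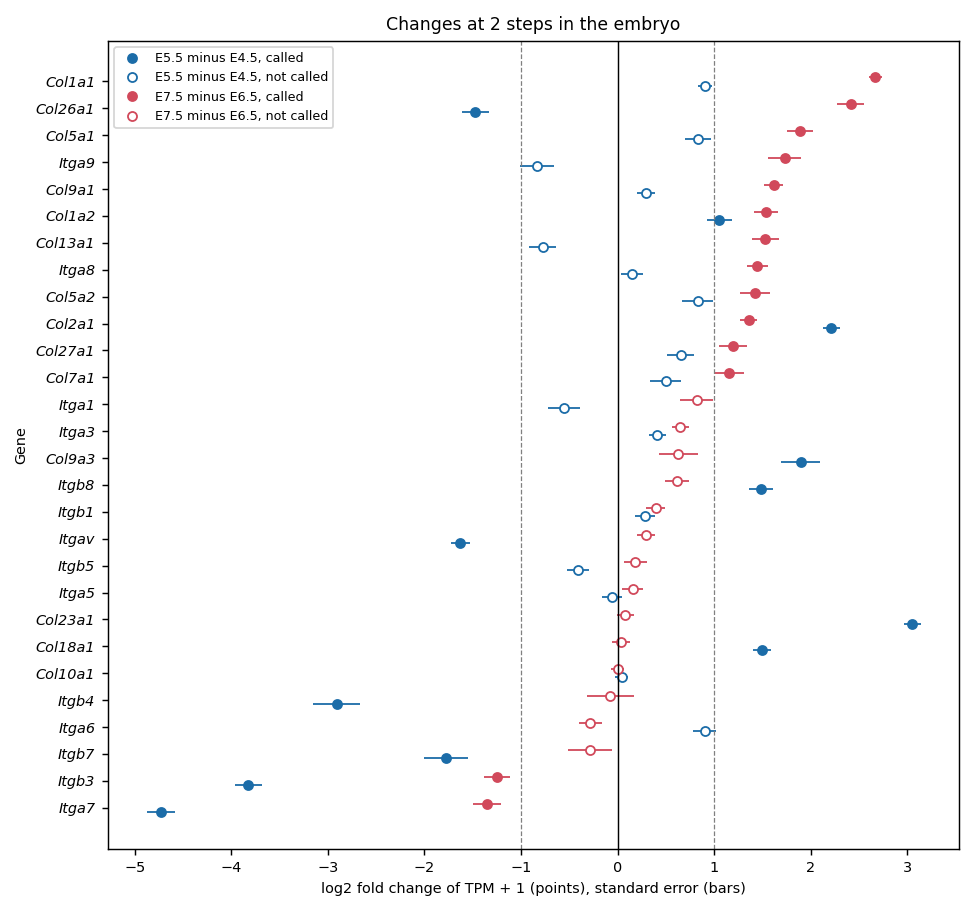
Log2 fold change of TPM + 1 (points) with its standard error (bars) for the 28 tested genes between E4.5 and E5.5 and between E6.5 and E7.5, filled where called, with dashed lines at a 2-fold change. At the later step 10 collagens, Itga8 and Itga9 lie right of the upper line, and Itga7, Itgb3, Itgb4, Itgb7 and Itgav lie left of the lower line at the earlier step.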

How the data were processed

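Bulk RNA-seq of 27 libraries was analysed, 3 per group. Per the study's methods and processing notes, cutadapt 2.4 removed adapters, STAR placed reads on mm10 and StringTie estimated gene levels from a GENCODE annotation. The authors deposited TPM, which are relative to all transcripts of a library and hide depth. Genes on several lines (12 identifiers) were summed, and empty cells (56 lines) were read as 0. No file column was left unmapped.

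Values were log2(TPM + 1). The study tested counts, which TPM are not, so limma 3.58.1 in R 4.3.3 was used (lmFit over the 4 groups in vitro or the 5 stages in vivo, eBayes without trend). Genes were autosomal, protein-coding (GENCODE biotype) and above 2 TPM in at least 3 libraries of the setting. Calls needed a Benjamini-Hochberg adjusted p below 0.05 over all tested genes and an absolute log2 fold change above 1. Fold changes on this scale understate changes of low genes. The code was tested on simulated data. Other steps used Python 3.11.15.

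Genes named were 14 listed members (Itgb1, Itgav, Itga3, Itga5, Itga6, Itgb5, Itgb3, Itgb8, Col18a1, Col1a1, Col1a2, Col3a1, Col5a1 and Col5a2), the 4 called members with the largest change per direction and comparison, and other members by role. Members of the other lists shown with values were chosen after their values were seen. The members and lists were chosen with earlier results of these data known. Alternatives were a pseudocount of 0.1, no filter, all genes, rescaled TPM, only the compared groups, a replicate block, an eBayes trend, averaged near-identical replicates, and each library left out.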

Additional observations from a re-analysis of the deposited data

Results flagged for a closer look

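ESC-derived and embryo-derived 3D EpiSCs differed for 3 collagens. Their contrasts against 2D EpiSCs differed in size by the same amount, because the shared 2D EpiSC libraries cancel. The 2D EpiSCs came from ESCs and no 2D culture was of embryo origin. Whether the change from 2D to 3D depends on origin was therefore not measured, and the test compares only the 2 kinds of 3D culture. Col9a2 was 1.28 log2 units higher in ESC-derived cells (1.67, 2.06 and 2.32 against 0.108, 0.201 and 0.416 TPM, higher in 3 of 3 libraries), Col5a2 1.03 (1.55, 1.91 and 0.243 against 0.0380, 0 and 0.0449 TPM) and Col18a1 1.01 (110.3, 112 and 102 against 46.0, 56.3 and 58.1 TPM). Over all tested genes 1.98% were called higher and 1.98% lower. Col5a2 lost its call in 10 of 20 alternatives and Col18a1 in 6 of 20, while Col9a2 kept it in all 20. Origin and genetic background of the lines cannot be told apart.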

How the results depend on the processing

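No direction reversed in any alternative. Of 88 called values of single genes, 72 kept the call in every alternative and 16 lost it in some. With a pseudocount of 0.1 the genes called numbered 10 in ESC-derived 3D EpiSCs against EpiLCs (2 as reported), 15 in embryo-derived 3D EpiSCs against EpiLCs (9), 5 between the 3D cultures (3), 14 from E3.5 to E4.5 (9), 21 from E4.5 to E5.5 (12) and 4 from E5.5 to E6.5 (2). In ESC-derived 3D EpiSCs against EpiLCs rescaled TPM gave 4, and averaging near-identical replicates 5. With each library left out in turn, counts ran from 5 to 12 in ESC-derived and 6 to 12 in embryo-derived 3D EpiSCs against 2D EpiSCs. They ran from 3 to 6 and 8 to 10 in the same cells against EpiLCs. In 2D EpiSCs against EpiLCs they ran from 9 to 14, and between the 3D cultures from 1 to 3. Over the stage steps in order they were 7 to 9, 11 to 13, 2 to 2 and 8 to 14. Keeping the genes of the whole fit, an alternative chosen after seeing the data, gave 10 to 12, 11 to 12, 12 to 15 and 13 to 14 in the first 2 comparisons, in 2D EpiSCs against EpiLCs and from E6.5 to E7.5, since the filter then removed no gene. Leaving out genes that passed the filter through 1 of the 2 compared groups alone, also chosen after seeing the data, gave 5 in ESC-derived and 7 in embryo-derived 3D EpiSCs against 2D EpiSCs and 8 from E6.5 to E7.5. Itga3 in embryo-derived cells against 2D EpiSCs was lost without 2D EpiSC replicate 3, Itgb8 there without embryo-derived replicate 1, Col1a1 and Col1a2 in 2D EpiSCs against EpiLCs without EpiLC replicate 2, Itga9 there in 9 of 20 alternatives, and Col7a1 at E7.5 without E7.5 replicate 1. Rescaling moved the share of lower calls over all genes from 25.2% to 37.0% in 2D EpiSCs against EpiLCs, from 50.1% to 35.6% between the 3D cultures and from 15.4% to 34.2% from E6.5 to E7.5. Replicate numbers did not pair the libraries (mean correlation of deviations of -0.030 in vitro and -0.017 in vivo), and the replicate block left all 10 counts as reported, for example 10 and 12 in the 3D cultures against 2D EpiSCs. Depth is unknown, so values near 0 carry an error that these files do not show.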
